A study of Mus musculus with 8 samples.

Results

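The 9 genes described here handle calcium, phosphate and vitamin D: Vdr, Cyp24a1, Pthlh, Casr, Atp2b1, Atp2b2, Atp2c1, Atp2c2 and Slc34a2. They were chosen by symbol from the 27998 genes of the deposited count tables, and each symbol matched 1 gene ID. Their transcripts were counted in single mammary epithelial cells of 8 mice and summed within each mouse and cell cluster. Of the 9 genes, 8 had UMIs (unique molecular identifiers, each marking 1 captured transcript) in the epithelial clusters. The totals over all mice were 50460 UMIs for Atp2b1, 9245 for Atp2c1, 8175 for Vdr, 3357 for Pthlh, 2755 for Cyp24a1, 2422 for Atp2c2, 327 for Slc34a2 and 49 for Atp2b2. Casr had 0.

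Milk carries large amounts of calcium and phosphate, and the secreting alveolar cell moves both from the blood side to the alveolar lumen. Calcium that enters the cell is loaded into the Golgi by secretory pathway pumps and exported with the milk proteins, or pumped across the plasma membrane, and phosphate is carried by sodium-dependent transporters. The vitamin D receptor acts in the nucleus with a retinoid X receptor partner, and the hydroxylase gene Cyp24a1 is its best known target, whose product degrades the active hormone. The mammary gland also secretes parathyroid hormone-related protein, which acts on bone during lactation and in the gland itself during development, and its release is sensed against blood calcium by the calcium-sensing receptor.

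All mice were C57BL/6N females with no transgene, and each library held the cells of 1 mouse. Each of the 4 stages had 2 mice. The nulliparous mice (NP) were 8 weeks old, the pregnant ones (G) were taken on gestation day 14.5, the lactating ones (L) on lactation day 6, and the post-involution ones (PI) at day 11 after natural weaning. The ages of the G, L and PI mice are not given in the sources used here. Live cells were sorted for the epithelial surface protein EpCAM and against CD31, CD45 and Ter119. By vaginal smear both NP mice and mouse PI2 were in oestrus and mouse PI1 in dioestrus, so that cycle stage and mouse cannot be told apart within PI.

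Library totals ranged from 13785920 UMIs (PI1) to 35711533 (G1). Of 25806 barcodes, 25009 passed the authors' quality flags and 23183 of those lay in the epithelial clusters C1 to C15. A set of 392 barcode sequences occurred in more than 1 library, and 0 of the kept cells carried one of them. The clusters are nearly stage-specific: hormone-sensing progenitors are C2 (NP) and C1 (PI), differentiated hormone-sensing cells C4 (NP), C5 (G) and C3 (PI), luminal progenitors C6 (NP) and C7 (PI), alveolar progenitors C10 (G) and C11 (L), differentiated alveolar cells C8 (G) and C9 (L), and basal cells C12 (NP and PI), C13 (G) and C14 (L, myoepithelial). C15 (L) is kept by its number, since its pericyte markers summed to 5441 and 4819 UMIs per 1000000 UMIs of the sum (CPM). C9 rests on 42 and 47 cells, and the basal cells of the PI mice on 28 and 59. The defining basal markers Krt5, Krt14 and Acta2 summed to between 6817 and 32454 CPM in C12 to C14, and to 111 and 107 CPM in C8 and 126 and 197 CPM in C10. They were higher in the luminal clusters of lactation, at 2012 and 879 CPM in C9 and 4647 and 3323 CPM in C11. The 8 milk protein genes took 44.8% and 41.7% of all UMIs in C9 and 9.67% and 5.74% in C8, so the CPM of every other gene in C9 is higher when they are left out of the total. Since the clusters were called on the same transcripts, differences between clusters are descriptions with no test, and stage comparisons within a cell type carry the tests.

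Vdr, the vitamin D receptor (chromosome 15, 97854425 to 97910630, minus strand, GRCm38), had at least 1 UMI in each of the 15 clusters. Among the mice of each cluster's own stage, its level was highest in the luminal progenitors of PI mice (C7), at 122 and 113 CPM in the 2 mice (mean 117 ± 6.20 SD, n = 2). The next cluster, C11, held 67.5 and 94.0 CPM and did not overlap it. Without the milk protein genes in the total, C9 came next at 94.9 and 127 CPM and overlapped C7 at 123 and 115 CPM. The 22 cells of mouse PI1 that were placed in the NP cluster C6 had a Vdr level of 191 CPM, from 29 UMIs, above both C7 values. From C11 through C1 (69.3 and 63.5 CPM), C9 (52.4 and 74.1 CPM), C6 (48.0 and 53.1 CPM) and C10 (48.2 and 51.2 CPM), each neighbour in the order overlapped the one before it. C8 held 44.9 and 47.3 CPM. The basal cluster C14, at 31.0 and 51.4 CPM, overlapped C6, C10 and C8. C12 of NP mice at 35.5 and 32.0 CPM and C13 at 26.8 and 28.4 CPM lay below those luminal clusters. Luminal C2, at 25.3 and 35.0 CPM, overlapped C12 and C13. The differentiated hormone-sensing clusters C4 (12.2 and 21.6 CPM), C3 (19.5 and 12.6 CPM) and C5 (16.2 and 7.74 CPM) were lower still, and C15 held 1.55 and 4.45 CPM. C5 and C15 rest on 2 UMIs and 1 UMI a mouse, under the limit of 3 counts, so they cannot be ordered against each other. At least 1 Vdr UMI was seen in 50.4% (95% exact Clopper-Pearson interval 46.9 to 53.8) and 44.6% (41.6 to 47.6) of the C7 cells, and in 30.1% (25.5 to 35.0) and 30.4% (25.4 to 35.8) of the C6 cells of NP mice. When 1000 UMIs were drawn from every cell, Vdr was left in 12.01% and 10.6% of C7 cells and 3.76% and 6.33% of C6 cells, with median depths of 6484, 5579, 7768 and 6597 UMIs before thinning.

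Cyp24a1, the hydroxylase that inactivates vitamin D (chromosome 2, 170482708 to 170497145, minus strand), was found in fewer clusters than its receptor. C7 was highest at 65.5 and 111 CPM, and PI2 was the higher mouse. C9 followed at 17.5 and 83.6 CPM and C1 at 19.6 and 68.2 CPM, and these 3 clusters overlapped. Without the milk protein genes in the total, the mean of the 2 mice in C9 was 87.5 CPM in place of 50.5, against 89.4 CPM in C7. C8 held 13.4 and 19.6 CPM and overlapped C9. Every cluster below C8 was under 10 CPM in both mice, with 0 UMIs in C4 of NP mice, C5 and C15. In C9 the level of mouse L2 came from 62 UMIs in 17 of 47 cells, of which 21 lay in 1 cell, and that of L1 from 10 UMIs in 3 of 42 cells. In C7 the cells with a UMI were 21.2% (18.5 to 24.2) in PI1 and 29.1% (26.4 to 31.8) in PI2, against 0.485% and 0.442% in C3 of the same mice, at median depths of 6484 and 5579 UMIs in C7 and 7179 and 5638 in C3.

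Pthlh encodes parathyroid hormone-related protein (chromosome 6, 147252101 to 147264183, minus strand), and its level was highest in basal cells. C14 stood at 70.8 and 68.8 CPM, C13 at 33.4 and 38.2 CPM and C12 of NP mice at 22.8 and 17.8 CPM. In C14, 17.4% (16.3 to 18.5) and 18.04% (16.7 to 19.4) of cells had a UMI, at median depths of 3701 and 4148 UMIs. Among luminal clusters C11 of mouse L2 was high at 60.0 CPM while L1 was at 10.2, and 26 of the 51 UMIs behind the value of L2 came from 1 cell. Without that cell the C11 level of L2 was 29.8 CPM. C9 held 10.5 and 5.39 CPM from 6 and 4 UMIs, and the hormone-sensing clusters C1 to C4 held at most 1.39 CPM in the mice of their own stage.

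Pthlh in the luminal clusters of lactation has to be read beside the basal transcripts there. In C9 the level was 14.8% and 7.83% of that in C14 of the same mouse, while the 3 basal markers were at 6.20% and 3.02% of their C14 sum. In C11 of L1 both shares were close, at 14.4% for Pthlh and 14.3% for the markers, and in C11 of L2 they were 87.1% and 11.4%. The C9 cells with a Pthlh UMI had basal markers at 1058 CPM against 2266 CPM in the cells without in L1, and 947 against 868 CPM in L2. The C11 cells with one had basal markers at 8673 CPM against 4236 CPM in L1, and 6240 against 2412 CPM in L2. The single cell with 26 UMIs had basal markers at 856 CPM and the luminal markers Krt8 and Krt18 at 23793 CPM. The part of basal RNA in these levels was not tested.

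Casr, the calcium-sensing receptor (chromosome 16, 36493696 to 36562141, minus strand), was not detectable at this depth in the epithelial clusters. In C14 of mouse L1, the largest cluster, 0 of 4637 cells had a Casr UMI, which allows a share of cells with a UMI of up to 0.0647%. In C9 that limit is 7.14% of 42 cells in L1 and 6.38% of 47 cells in L2. These limits are on cells with a UMI, and cells that express Casr without yielding one are not counted by them. As a level, 3 counts would be 0.142 CPM in C14 of L1 and 5.24 and 4.04 CPM in C9. Intervals and limits cover counting error only.

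The 2 plasma membrane calcium pumps were highest in different luminal clusters. Atp2b1, the pump found in most tissues (chromosome 10, 98914406 to 99026143, plus strand), was highest in the luminal progenitors of NP mice (C6) at 1377 and 1279 CPM, and at least 1 UMI was seen in 98.4% and 98.1% of those cells. C10 followed at 653 and 874 CPM, C7 at 570 and 619 CPM and C11 at 458 and 683 CPM, with C11 overlapping both C10 and C7. The basal clusters C13, C12 of NP mice and C14 held 370 and 399 CPM, 350 and 270 CPM and 135 and 155 CPM. Among differentiated luminal cells, C8 held 196 and 280 CPM, above C14 and overlapping C12. Levels were lower in C9, at 105 and 52.6 CPM, and in C4, at 48.3 and 31.8 CPM. C5 (16.2 and 27.1 CPM, from 2 and 7 UMIs) and C3 (17.7 and 20.5 CPM) were lowest and overlapped. The 22 PI1 cells in C6 had an Atp2b1 level of 1252 CPM, near that of the NP mice and above the 570 CPM of C7 in the same mouse, while their Vdr level given above was far from that of the NP mice.

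Atp2b2, the plasma membrane pump linked to calcium export into milk (chromosome 6, 113743831 to 114042613, minus strand), was highest in C9. Its levels there were 27.9 and 13.5 CPM, from 16 UMIs in 12 of 42 cells (28.6%, 15.7 to 44.6) and 10 UMIs in 6 of 47 cells (12.8%, 4.83 to 25.7). C11 came next with 1.85 and 1.18 CPM, from 2 UMIs and 1 UMI. In C14 of the same libraries 0.173% and 0.161% of cells had an Atp2b2 UMI, for levels of 0.379 and 0.301 CPM, and the other clusters were at 0.271 CPM or less. The C9 cells were deeper (median 11602 and 16271 UMIs) than the C14 cells (3701 and 4148 UMIs), and after thinning to 1000 UMIs only 2 and 0 of the C9 cells kept one, so the shares at equal depth rest on too few UMIs to be ordered.

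The 2 pumps of the secretory pathway also differed. Atp2c1, the widely expressed Golgi pump for calcium and manganese (chromosome 9, 105403539 to 105527319, minus strand), was found in all 15 clusters within a narrow range. C5 was highest at 138 and 96.8 CPM, from 20 and 41 cells, then C3 at 82.5 and 72.2 CPM, and the remaining clusters lay between 26.8 and 68.7 CPM. From C1 (61.4 and 67.8 CPM) to the lowest, C11 (26.8 and 36.4 CPM), each cluster overlapped its neighbour in the order. Atp2c2, its relative in secretory epithelia (chromosome 8, 119700009 to 119757717, plus strand), varied more. C9 stood at 59.4 and 52.6 CPM, clear of C3 at 47.4 and 40.8 CPM, and C1 (27.0 and 24.5 CPM), C11 (21.3 and 20.0 CPM) and C4 of NP mice (14.1 and 13.5 CPM) followed without overlap. Luminal progenitors of NP mice (C6, 0.604 and 2.07 CPM), C10 (1.53 and 0 CPM), C13 (0.758 and 0.686 CPM) and C15 (0 in both) held little. In C14, Atp2c2 was at 5.49 and 9.45 CPM, which is 9.24% and 17.97% of the C9 level of the same mouse, while the milk markers Csn2, Wap, Lalba and Csn3 in C14 were at 0.359% and 0.406% of their C9 sum.

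Slc34a2, a sodium-dependent phosphate cotransporter of apical membranes (chromosome 5, 53038081 to 53071664, plus strand), was highest in C9 at 119 and 63.3 CPM. These levels came from 68 UMIs in 26 of 42 cells (61.9%, 45.6 to 76.4) and 47 UMIs in 19 of 47 cells (40.4%, 26.4 to 55.7). C11 held 16.7 and 4.70 CPM, C7 3.11 and 2.51 CPM and C8 2.87 and 1.32 CPM, and C4 of NP mice, C5, C10 and C15 held 0 UMIs. In C14 of the same libraries Slc34a2 was at 0.568 and 0.361 CPM, or 0.478% and 0.570% of the C9 level, close to the 0.359% and 0.406% at which the milk markers stood there. Without the milk protein genes in the total, the mean of the 2 mice in C9 was 162 CPM in place of 91.1, and that of Atp2b2 36.9 in place of 20.7.

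Slc34a2 is among the members with a large change from gestation to lactation below, and the sequence upstream of its start is shown for that reason. RefSeq (GRCm38.p6) gives 1 start, and the 250 bases before it lie at chr5:53049103-53049352 on the plus strand, inside the span of the gene given above. Capitals mark the letters TATATA, which match at 2 overlapping positions, 29 and 27 bases before the start.
Slc34a2: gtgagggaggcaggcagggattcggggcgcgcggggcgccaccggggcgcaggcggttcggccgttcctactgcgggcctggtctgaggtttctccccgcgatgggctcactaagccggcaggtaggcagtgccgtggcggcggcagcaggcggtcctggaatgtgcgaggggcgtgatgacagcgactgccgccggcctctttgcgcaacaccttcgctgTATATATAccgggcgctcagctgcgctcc
The window has a GC content of 69.6%, and the median of all RefSeq promoter windows of this length is 52.4%. TATATA was found on either strand in 5.25% of the 32851 windows. The motifs were chosen after these letters had been seen. A STAT site, TTCNNNGAA, was found in 7.02% of all windows and the vitamin D response element of the DR3 type in 0.0396%, and neither was in the 11 windows of the 7 genes that had one (all but Cyp24a1 and Atp2c2). A match is a description of letters.

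**Figure D1:**
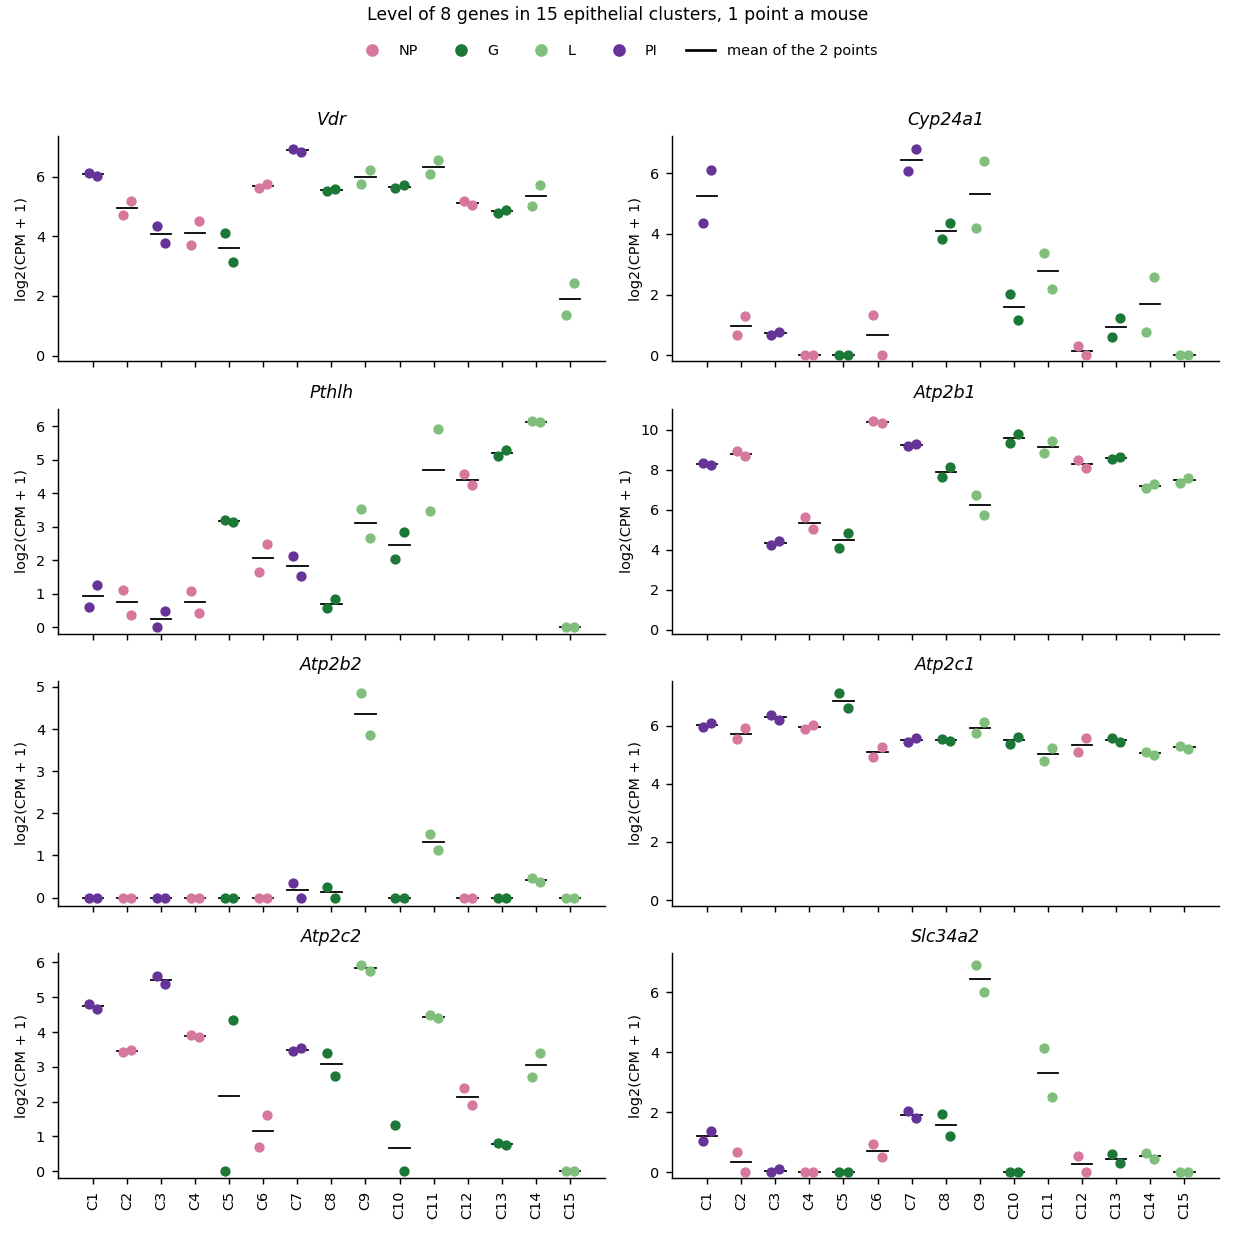
Level of 8 genes in the 15 epithelial clusters as log2(CPM + 1), with 1 point for each of the 2 mice of the stage that makes up most of a cluster, coloured by stage, and a line at the mean of the 2 points. Slc34a2 and Atp2b2 stand out in C9, Atp2b1 in C6 and Cyp24a1 in C1, C7 and C9, with C8 next. Pthlh stands out in C12 to C14 and in C11 of mouse L2, while Atp2c1 lies in a narrow range.

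NP and PI mice were compared within each cell type. The PI mice had gone through gestation, lactation and weaning, and their age is not given, so stage and age cannot be told apart. PI was sampled at day 11 after weaning only. In luminal progenitors, 5 of the 9 genes were higher in PI mice and 1 lower. Vdr and Cyp24a1 rose together, as did both secretory pathway pumps and Slc34a2, and Atp2b1 fell. With edgeR's quasi-likelihood test and Benjamini-Hochberg adjustment over all genes, 26.9% of 10766 genes tested were called, 13.9% higher and 13% lower in PI. Casr and Atp2b2 did not pass the filter on low counts, so 7 members were tested. Milk markers were higher in PI as well, at 752 and 1434 CPM in C6 of NP mice and 8079 and 7871 CPM in C7, and at 193 and 334 CPM in C2 of NP mice and 3962 and 3762 CPM in C1. In the differentiated hormone-sensing cells they stood at 13.6 and 10.6 CPM (C4, NP) and 42.0 and 36.1 CPM (C3). The luminal progenitor markers went the other way, from 2390 and 2118 CPM in C6 to 1323 and 914 CPM in C7. The part of either in the members' changes was not tested.

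Vdr in luminal progenitors was at 48.0 and 53.4 CPM in the NP mice and at 123 and 113 CPM in the PI mice. Both PI mice lay above both NP mice, and the log2 fold change was 1.30 ± 0.14 (SE), adjusted p = 6.93e-05. Cyp24a1 was nearly absent in NP mice, with 5 UMIs in NP1 and 0 in NP2 (1.51 and 0 CPM), against 64.1 and 110 CPM in the PI mice (adjusted p = 8.37e-06). The ratio of summed CPM was 101-fold (counting interval 43.0 to 310), which is given in place of the fitted change because that depends on the few NP counts. Atp2b1 was at 1377 and 1277 CPM in NP and 584 and 624 CPM in PI, with a log2 fold change of -1.05 ± 0.14 (SE), adjusted p = 0.000251.

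Atp2c2 in luminal progenitors went from 0.604 and 2.07 CPM (7 UMIs in all) to 9.94 and 10.5 CPM, and the ratio of summed CPM was 8.36-fold (3.96 to 21.1, adjusted p = 0.000545). Atp2c1 was at 29.0 and 37.7 CPM in NP and 42.2 and 46.6 CPM in PI, a log2 fold change of 0.51 ± 0.17 (SE), adjusted p = 0.0485. Slc34a2 had 4 UMIs in NP (0.905 and 0.414 CPM) and 44 in PI (3.18 and 2.49 CPM), a ratio of 4.05 (1.47 to 15.5, adjusted p = 0.0270). Pthlh overlapped between stages, at 2.11 and 4.55 CPM against 3.45 and 2.37 CPM (log2 fold change -0.06 ± 0.48, adjusted p = 0.945). The calls of Atp2c1 and Slc34a2 were the least firm: Atp2c1 lost significance without NP1 (log2 0.29, adjusted p = 0.390) and without PI2 (0.43, 0.136), with library size in place of TMM (0.43, 0.0857) and with DESeq2 (0.54, 0.204), and Slc34a2 without NP1 (2.77, 0.109), NP2 (1.73, 0.156) or PI2 (2.23, 0.118) and with DESeq2 (2.18, 0.265). Without PI1, Slc34a2 did not pass the filter and was not tested. Without NP1, no NP library with a Cyp24a1 UMI is left, and the fitted log2 change of Cyp24a1 went from 6.69 to 12.04 with its call unchanged.

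In hormone-sensing progenitors 3 of 5 members tested rose and 1 fell, while 16.6% of 10692 genes were called, 9.58% higher and 7.05% lower in PI. Vdr was at 25.3 and 35.0 CPM in NP and 67.7 and 63.2 CPM in PI (log2 fold change 1.12 ± 0.18 SE, adjusted p = 0.00138). Cyp24a1 had 8 UMIs in the NP mice (0.579 and 1.44 CPM) against 18.97 and 68.0 CPM in PI, a ratio of summed CPM of 58.7 (29.5 to 137, adjusted p = 0.000141). PI2 was the higher of the PI mice, and both lay above both NP mice. Atp2c2 went from 9.66 and 10.1 CPM to 26.1 and 24.4 CPM (log2 1.34 ± 0.20, adjusted p = 0.000865), and Atp2b1 from 480 and 409 CPM to 320 and 303 CPM (log2 -0.53 ± 0.14, adjusted p = 0.0216). Atp2c1 was at 46.0 and 58.9 CPM in NP and 60.5 and 68.0 CPM in PI, adjusted p = 0.244. Leaving out NP1 took the Vdr call to an adjusted p of 0.0519 (log2 0.85), and leaving out NP1 or NP2 took that of Atp2b1 to 0.229 (log2 -0.44) or 0.120 (log2 -0.60).

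In differentiated hormone-sensing cells 1 of 4 members tested rose and 1 fell, with 14.3% of 11994 genes called, 7.64% higher and 6.65% lower. Atp2c2 was at 14.1 and 13.5 CPM in NP and 45.2 and 40.7 CPM in PI (log2 1.57 ± 0.15, adjusted p = 6.60e-05). Atp2b1 was at 48.2 and 31.7 CPM against 18.9 and 20.9 CPM (log2 -1.02 ± 0.19, adjusted p = 0.00547). Vdr overlapped, at 12.1 and 21.7 CPM in NP and 18.4 and 12.7 CPM in PI (log2 -0.27 ± 0.28, adjusted p = 0.567). Cyp24a1 had 0 UMIs in both NP mice and 13 in the PI mice (0.548 and 0.685 CPM), which is at least 6.01-fold higher against a floor of 3 counts over the group, and was not tested because it did not pass the filter. The few PI cells that were placed in the NP cluster C4 (40 and 88 cells) had Atp2c2 at 22.1 and 36.4 CPM, between the 14.1 and 13.5 CPM of the NP cells of that cluster and the C3 levels.

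Whether these changes differed between cell types was tested as an interaction with the mouse as a term. The Vdr change was larger in luminal progenitors than in differentiated hormone-sensing cells by 1.49 ± 0.24 (log2, SE), adjusted p = 0.000416, and that of Atp2c2 by 1.54 ± 0.50, adjusted p = 0.0492. These were 2 of 7 members tested, where 13% of 12160 genes were called. Against hormone-sensing progenitors, the fall of Atp2b1 was larger in luminal progenitors by -0.51 ± 0.11, adjusted p = 0.000535, and the rise of Atp2c2 larger by 1.80 ± 0.52, adjusted p = 0.0170, where 7.96% of 11155 genes were called. The Vdr changes of the 2 progenitor types were not shown to differ (difference 0.18 ± 0.17, adjusted p = 0.620), nor those of Cyp24a1 (1.13 ± 0.91, adjusted p = 0.549). The Atp2c2 differences rest on 2 and 5 UMIs in the NP luminal progenitors. Without NP1 they were 0.81 (adjusted p = 0.523) against the differentiated cells and 1.12 (0.409) against the progenitors, without NP2 2.62 (0.0131) and 2.72 (0.0168), and without PI2 the second was 1.76 (0.0534). The first was also lost with library size only (1.41, adjusted p = 0.080) and with DESeq2 (1.57, 0.228), which gave no adjusted p for the second.

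In basal cells 0 of the 4 members tested were called between NP and PI by edgeR or by DESeq2, with 2 at an unadjusted p under 0.05 in edgeR (Pthlh and Atp2b1), where 7.43% of 8511 genes were called, 4.74% higher and 2.69% lower. Pthlh was at 22.8 and 20.9 CPM in NP and at 175 and 19.2 CPM in PI, so that the groups overlapped (log2 1.54 ± 0.53, adjusted p = 0.0809). The high PI1 value came from 20 UMIs in C12, of which 12 lay in 1 cell, and the C12 level of PI1 was 179 CPM with that cell and 76.2 CPM without it. Vdr, Atp2b1 and Atp2c1 overlapped as well, with adjusted p of 0.979, 0.165 and 0.970. With 28 and 59 PI cells these comparisons rest on few UMIs, and immune markers stood at 851 CPM in the C12 cells of PI1 and 10.6 CPM in those of PI2.

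**Figure D2:**
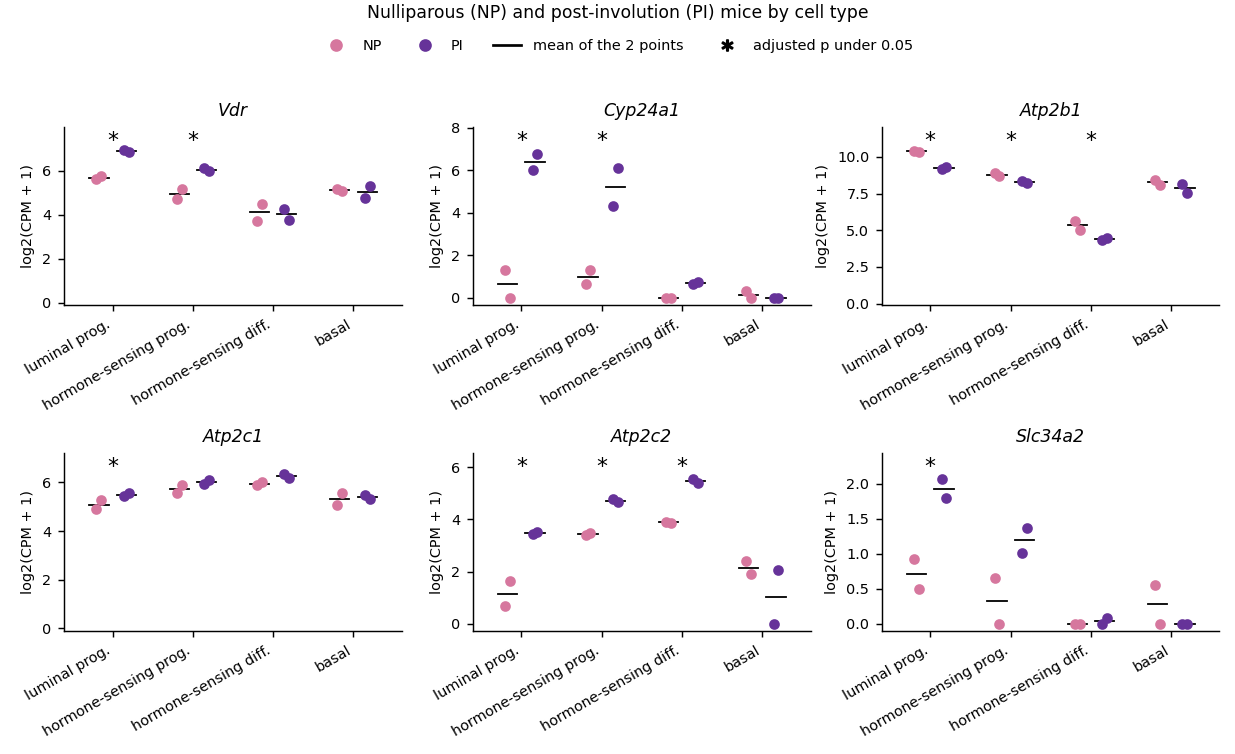
Levels of 6 genes as log2(CPM + 1) in NP and PI mice for 4 cell types, with 1 point a mouse, a line at the mean of the 2 points and a star where the adjusted p of edgeR's test was under 0.05. Vdr and Cyp24a1 are higher in PI mice in both progenitor types, Atp2c2 in all 3 luminal types, and Atp2b1 is lower in all 3, with no star in basal cells.

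The basal lineage was followed from NP to G to L. Between NP and G, 2 of 5 members tested rose and 1 fell, against 46.1% of 11086 genes called, 24.3% higher and 21.9% lower, so calls are common in this comparison. Pthlh went from 22.8 and 20.9 CPM to 33.2 and 38.4 CPM (log2 0.79 ± 0.19, adjusted p = 0.00244). Atp2b1 went from 350 and 270 CPM to 369 and 399 CPM (log2 0.39 ± 0.13, adjusted p = 0.0230). Atp2c2 fell from 18 and 6 UMIs (4.23 and 2.73 CPM) to 3 and 3 UMIs (0.755 and 0.673 CPM), a ratio of 0.191 (0.0640 to 0.480, adjusted p = 0.00544). Luminal markers were lower in G as well, at 3665 and 2341 CPM in C12 of NP mice and 815 and 812 CPM in C13. The hormone-sensing markers Esr1, Pgr, Prlr and Cited1 summed to 278 and 305 CPM and to 17.9 and 15.6 CPM. The part of luminal RNA in the fall of Atp2c2 was not tested. Vdr (35.5 and 32.3 CPM to 26.7 and 28.9 CPM, adjusted p = 0.361) and Atp2c1 (adjusted p = 0.228) were not called. The Atp2b1 call was lost without NP2 (log2 0.24, adjusted p = 0.275), without G2 (0.34, 0.0541), with library size only (0.30, 0.0792) and with DESeq2 (0.39, 0.0560), and that of Atp2c2 with DESeq2 (adjusted p = 0.159). Without NP1, Atp2c2 did not pass the filter.

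Between G and L, 3 of 6 members tested rose in basal cells and 1 fell, against 48.3% of 12720 genes called, 24.2% higher and 24% lower. Pthlh rose again, from 33.2 and 38.4 CPM to 70.9 and 68.8 CPM (log2 1.08 ± 0.14, adjusted p = 0.000461), with no overlap between NP, G and L mice. Atp2b1 fell from 369 and 399 CPM to 135 and 155 CPM (log2 -1.29 ± 0.13, adjusted p = 0.000106). Atp2c2 went from 0.755 and 0.673 CPM to 5.49 and 9.45 CPM, a ratio of 10.2 (4.61 to 27.9, adjusted p = 0.000789). Luminal markers summed to 815 and 812 CPM in C13 and 1521 and 1039 CPM in C14, and milk markers to 752 and 426 CPM and 779 and 844 CPM, and their part in the Atp2c2 level was not tested. Vdr was at 26.7 and 28.9 CPM in G and 31.0 and 51.4 CPM in L (log2 0.68 ± 0.25, adjusted p = 0.0497). That call depended on single libraries: it was 0.28 (adjusted p = 0.307) without L2, 0.60 (0.115) without G1, 0.73 (0.0830) without G2 and 0.56 (0.0892) with library size only, while without L1 the change was 1.03. Cyp24a1 overlapped, at 0.503 and 1.57 CPM against 0.710 and 4.99 CPM (adjusted p = 0.256), and Atp2c1 was at 46.0 and 42.6 CPM against 33.3 and 30.7 CPM (log2 -0.36 ± 0.14, adjusted p = 0.0617).

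The change from gestation to lactation in differentiated alveolar cells (C8 to C9) was the widest for these genes, with 7 of 8 members tested higher in L and 0 lower. In this comparison 18.7% of 11860 genes were called, 9.54% higher and 9.17% lower. The fit uses TMM scaling, under which the median log2 change of all genes was -0.14. With library size only, that median was -1.05 and 9.04% of the calls were higher in place of 51.0%. With DESeq2's size factors the median was 0.43 and 63.9% of calls were higher. For the 7 members called, the ratio of CPM values was smaller than the fitted change.

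Slc34a2 was at 2.87 and 1.32 CPM in the G mice and at 118 and 63.1 CPM in the L mice, with no overlap, a log2 fold change of 6.25 ± 0.38 (SE) and adjusted p = 2.94e-07. On the CPM scale the ratio was 40.1 (counting interval 30.5 to 52.7). Atp2b2 had 5 and 0 UMIs in G (0.189 and 0 CPM) and 16 and 10 UMIs in L (27.7 and 13.4 CPM), a CPM ratio of 190 (71.9 to 635, adjusted p = 1.36e-05). Atp2c2 was at 9.56 and 5.69 CPM in G and 58.9 and 52.4 CPM in L (log2 3.74 ± 0.35, adjusted p = 1.06e-05). Atp2c1, its widely expressed relative, was at 45.4 and 43.3 CPM against 51.9 and 68.5 CPM (log2 1.36 ± 0.21, adjusted p = 0.000665).

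Vdr was at 44.9 and 47.3 CPM in G and 51.9 and 73.8 CPM in L (log2 1.38 ± 0.21, adjusted p = 0.000627). With library size only the changes of Vdr and Atp2c1 were 0.47 (adjusted p = 0.0685) and 0.46 (0.0726), so these 2 calls depend on the scaling. Cyp24a1 was at 13.4 and 19.6 CPM in G and 17.3 and 83.2 CPM in L, with L1 inside the range of the G mice (log2 2.62 ± 0.45, adjusted p = 0.00148). Without L2 the change of Cyp24a1 was 0.90 (adjusted p = 0.342), and with library size only 1.70. Pthlh went from 0.491 and 0.774 CPM to 10.4 and 5.37 CPM, a CPM ratio of 12.2 (5.32 to 25.6, adjusted p = 0.00130), on 10 UMIs in L and beside the basal markers given above. It did not pass the filter without G1 or without G2. Atp2b1 was the 1 member tested that was not called, at 196 and 280 CPM in G and 113 and 52.4 CPM in L (log2 -0.67 ± 0.27, adjusted p = 0.107). On the CPM scale its fall was larger than the fitted one, with no overlap and a ratio of 0.336 (counting interval 0.274 to 0.408).

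In alveolar progenitors (C10 to C11) 3 of 5 members tested rose from G to L and 0 fell, with 28% of 8446 genes called, 15.7% higher and 12.3% lower. Of the calls 56.0% were higher with TMM, 31.5% with library size only, which moved the median change of all genes from -0.03 to -0.31, and 71.4% with DESeq2. Atp2c2 had 2 and 0 UMIs in G and 23 and 17 in L (20.4 and 19.6 CPM), a ratio of 29.1 (7.55 to 249, adjusted p = 0.000512). Vdr was at 48.2 and 51.2 CPM in G and 65.6 and 92.0 CPM in L (log2 0.93 ± 0.21, adjusted p = 0.0101), and DESeq2 did not call it (adjusted p = 0.114). Pthlh was at 3.06 and 6.24 CPM against 9.75 and 62.1 CPM (log2 3.07 ± 0.79, adjusted p = 0.0185), a call that ended without L2 (log2 1.33, adjusted p = 0.177), the mouse in which 1 cell held 26 of 54 UMIs. Slc34a2 was not tested because it did not pass the filter: it had 0 UMIs in G and 18 and 4 in L (15.95 and 4.60 CPM), at least 10.7-fold higher against a floor of 3 counts over the group. Cyp24a1 also stayed below the filter, with 4 and 2 UMIs in G and 10 and 3 in L.

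**Figure D3:**
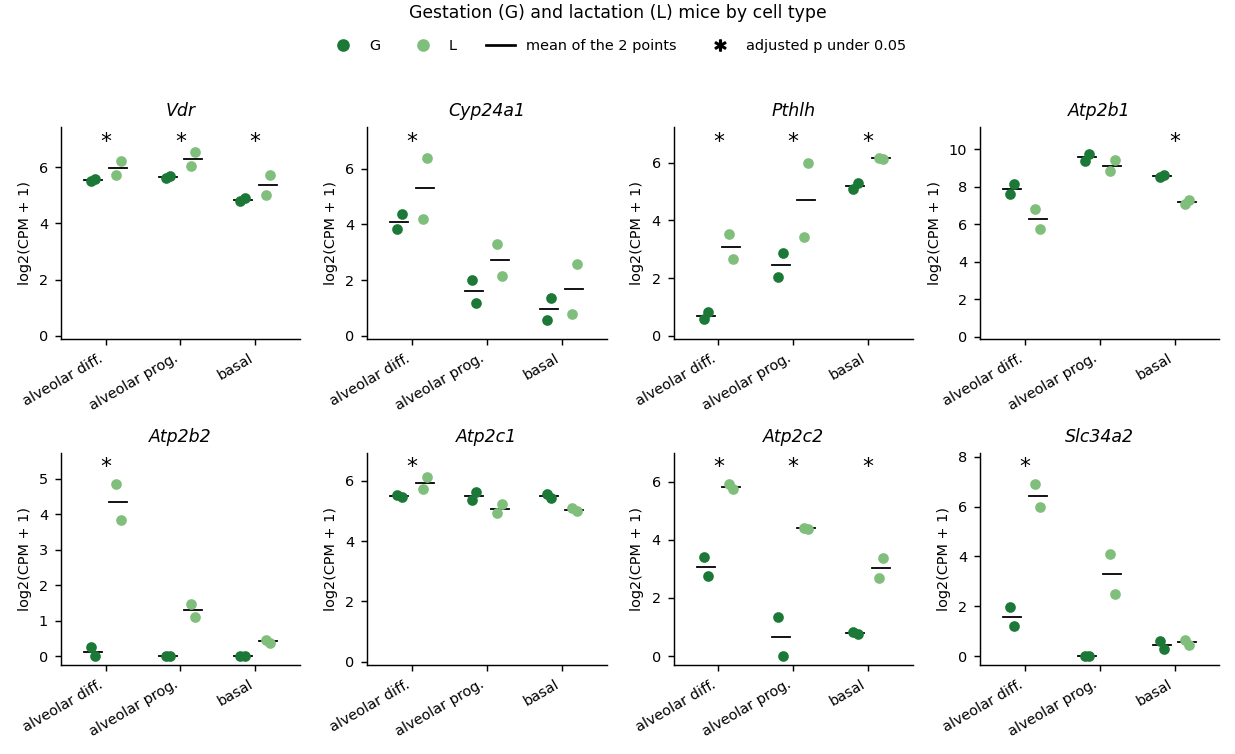
Levels of 8 genes as log2(CPM + 1) in gestation and lactation mice for 3 cell types, with 1 point a mouse, a line at the mean of the 2 points and a star where the adjusted p of edgeR's test was under 0.05. In G Atp2b2 is near 0 and Slc34a2 low, and both are highest in the differentiated alveolar cells of L. Atp2c2 is higher in L in all 3 types, and Atp2b1 is lower in the basal cells of L.

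The changes from G to L were also compared between cell types. Against basal cells, those of differentiated alveolar cells were larger for Slc34a2 by 5.76 ± 1.60 (log2, SE), adjusted p = 0.00349, for Pthlh by 3.32 ± 0.69, adjusted p = 3.48e-05, and for Atp2c1 by 1.64 ± 0.27, adjusted p = 4.00e-08. These were 3 of 8 members tested, where 18.5% of 13529 genes were called. This fit took 1261 prior degrees of freedom beside 2 residual ones, against 6.63 to 65.8 prior ones in the other fits, so its p-values rest almost wholly on the spread shared across genes. Basal markers also differed between the alveolar clusters, at 111 and 107 CPM in C8 and 2012 and 879 CPM in C9. Their part in the Pthlh difference was not tested. The Slc34a2 difference was set against 2 and 1 UMIs in the basal cells of G and was lost without G1 (5.72, adjusted p = 0.216) and without G2 (5.74, 0.0514). The median difference of all genes was -0.27, and -0.96 with library size only, where the Atp2c1 difference was 0.93. With DESeq2 the median went the other way, to 0.65, with 76.9% of calls positive in place of 44.9%, and the Atp2c1 difference was 1.82. For Atp2c2, the rises were not shown to differ (0.22 ± 0.79, adjusted p = 0.899), and the interval of that difference is wide. Against alveolar progenitors, Atp2c1 alone of 8 members tested differed, by 1.65 ± 0.30, adjusted p = 0.00193, where 3.83% of 8843 genes were called. The difference was 1.43 (adjusted p = 0.0905) without G2 and 0.87 with library size only.

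**Figure D4:**
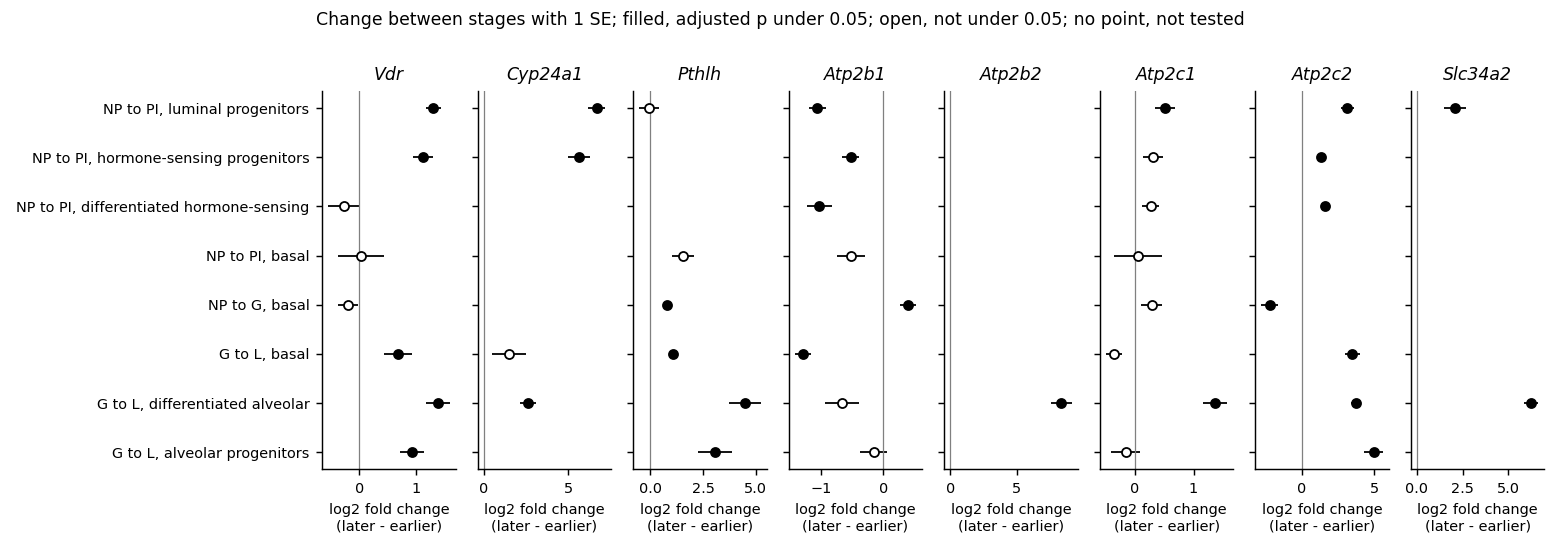
Fitted log2 fold change (later minus earlier stage) of 8 genes in the 8 stage comparisons, with bars of 1 SE, filled points where the adjusted p was under 0.05, open points where it was not, and no point where a gene did not pass the filter. Scales differ between panels. Atp2c2 is positive in 6 of the 7 comparisons in which it was tested, and points that rest on a group with few or 0 UMIs, such as Atp2b2, depend on the fit's prior count.

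Within C9 the genes differed in which cells they were found in, a comparison made after the levels were seen and given with no test. In cells with an Slc34a2 UMI the 4 milk markers summed to 251555 CPM against 142841 CPM in the cells without in L1, and to 264016 against 152506 CPM in L2. Cells with an Atp2b2 UMI likewise had more milk transcripts than the rest, at 328308 against 166525 CPM in L1 and 311988 against 181011 CPM in L2. For Vdr the order was the other way round, with 164469 against 278949 CPM in L1 and 178214 against 267978 CPM in L2, and so it was for Atp2b1, with 155408 against 284727 CPM and 151471 against 263546 CPM. Cells with a UMI were the deeper ones for all 4 genes: in L2 their median was 20232 UMIs against 12224 for Slc34a2 and 17930 against 5037 for Vdr. The part of depth and of the milk protein share in these differences was not tested.

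**Figure D5:**
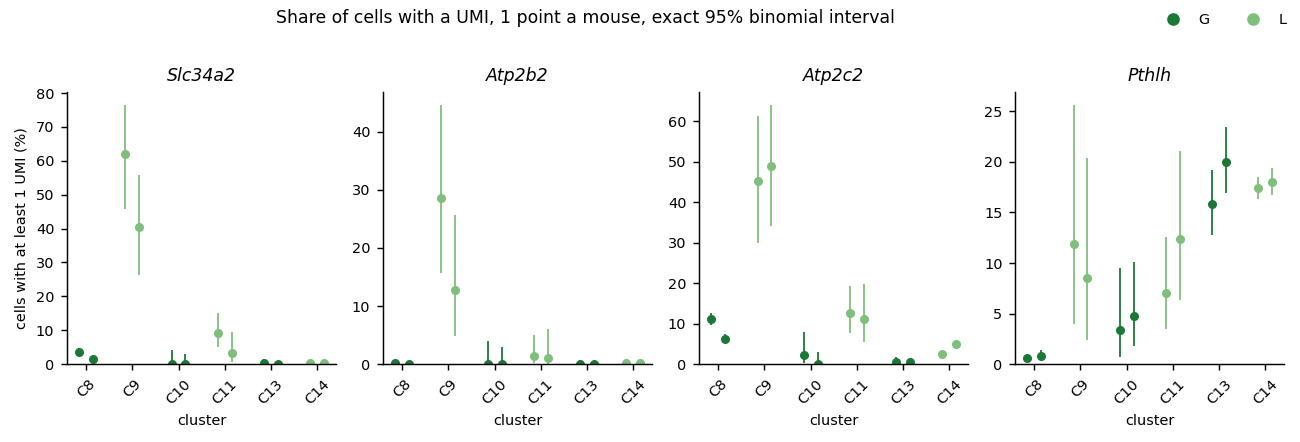
Share of cells with at least 1 UMI of 4 genes, in percent, in 6 clusters of gestation and lactation mice, with 1 point a mouse and bars of the exact 95% binomial interval, which covers counting error only. Slc34a2, Atp2b2 and Atp2c2 are seen in the largest shares of C9 cells, and Pthlh in C13 and C14. The clusters differ in depth, so shares are not at equal depth.

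Among the 8862 genes with a mean of at least 20 CPM in 1 cluster, those most like each member were found by Pearson's r of log2(CPM + 1) over the 35 sums of a mouse and an epithelial cluster. These sums share mice, depth and the milk protein load, so r is a description. Nearest to Slc34a2 were Gm12863 (r = 0.91), Lao1 (0.90) and, from its own group, Atp2b2 (0.90). Nearest to Atp2b2 were Pip (0.98) and Orm1 (0.94), to Vdr Fxyd3 (0.90), to Cyp24a1 Cel (0.89), Plin2 (0.85) and Trf (0.82), to Pthlh Efcab1 (0.87) and Spock2 (0.87), to Atp2b1 Cdc42ep3 (0.95) and Lurap1l (0.95), to Atp2c1 Apof (0.84) and to Atp2c2 Sigirr (0.79). Vdr and Cyp24a1, receptor and target, had r = 0.60.

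Other genes of the same pathways were taken from 6 lists with 65 genes in the files. Among 11 genes for store-operated entry and calcium channels, 2 of 7 tested rose from G to L in differentiated alveolar cells and 2 of 6 in alveolar progenitors, with medians of 0.85 and 0.38 against -0.14 and -0.03 over all genes, of which 9.54% and 15.7% were called higher. Orai1, the pore of store-operated entry, was at 46.4 and 49.1 CPM in G and 182 and 92.6 CPM in L (log2 2.39 ± 0.22, adjusted p = 1.14e-05), and in alveolar progenitors at 29.1 and 22.5 CPM against 204 and 135 CPM (log2 3.02 ± 0.26, adjusted p = 3.91e-05). Tmem165, a Golgi cation transporter, rose in differentiated alveolar cells, from 45.7 and 39.2 CPM to 135 and 77.9 CPM (log2 2.19 ± 0.22, adjusted p = 2.26e-05). In basal cells 3 of 10 rose and 3 fell from G to L, where 48.3% of all genes were called, and both genes were among those that fell there, Orai1 with log2 -0.54 and Tmem165 with log2 -1.08. From NP to G in basal cells 1 of 10 rose and 2 fell, among them Orai2 (log2 -1.65), where 46.1% of all genes were called. From NP to PI the list gave 1 of 7 in luminal progenitors (Orai1, log2 0.63), 2 of 8 in hormone-sensing progenitors (Orai1 and the store sensor Stim1), 1 of 8 in differentiated hormone-sensing cells (Stim1, log2 0.80) and 0 of 9 in basal cells, all rises. Over all genes 13.9%, 9.58%, 7.64% and 4.74% were called higher in these types, in that order.

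Of 8 other calcium pumps and exchangers, Atp2b4, a further plasma membrane pump, rose from G to L in basal cells, from 12.1 and 10.1 CPM to 85.1 and 74.7 CPM (log2 2.97 ± 0.17, adjusted p = 1.02e-05), beside the fall of Atp2b1 there. All 4 called of the 5 tested in that comparison rose, the others being the endoplasmic reticulum pump Atp2a2 (log2 0.43) and the exchangers Slc8b1 (1.70) and Slc24a3 (2.63), with a list median of 1.70 against 0.04 over all genes, of which 48.3% were called and 24.2% higher. In differentiated alveolar cells 1 of 4 rose (Atp2b4, on 5 UMIs in L), and in alveolar progenitors 1 of 2 (Atp2a2, log2 0.89), where 9.54% and 15.7% of all genes were called higher. Slc24a3, a potassium-dependent sodium-calcium exchanger, rose from NP to PI in hormone-sensing progenitors (1.35 and 0.867 to 10.8 and 11.1 CPM, log2 3.22 ± 0.40, adjusted p = 0.000235) and in differentiated hormone-sensing cells (2.19 and 2.75 to 17.5 and 15.1 CPM, log2 2.63 ± 0.24, adjusted p = 3.89e-05), as 1 of 3 and 1 of 4 genes tested. In luminal progenitors 0 of 2 and in basal cells 0 of 2 were called between NP and PI. The shares of all genes called from NP to PI were 16.6% in hormone-sensing progenitors and 14.3% in differentiated hormone-sensing cells. In luminal progenitors and basal cells they were 26.9% and 7.43%. From NP to G in basal cells 2 of 3 rose and 1 fell, where 24.3% of all genes were called higher and 21.9% lower.

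Of 13 calcium-binding proteins, 7 of 12 tested rose and 1 fell from G to L in alveolar progenitors (median 0.80 against -0.03 over all genes, of which 15.7% were called higher and 12.3% lower). S100g, the calbindin whose gene is a classical vitamin D target in intestine, was at 0 and 1.87 CPM in G and 994 and 3093 CPM in L there, and was called. Nucb2, a secretory pathway protein, rose in alveolar progenitors (log2 1.97 ± 0.26) and differentiated alveolar cells (60.6 and 59.02 CPM in G, 170 and 177 CPM in L, log2 2.44 ± 0.16, adjusted p = 5.06e-07), where 4 of 11 rose and 1 fell. Among those 4, Sdf4 and Rcn2 were not above both G mice in both L mice as CPM. Over all genes 9.54% were called higher and 9.17% lower in differentiated alveolar cells. Rcn1, reticulocalbin of the endoplasmic reticulum, was lower in the later stage in 7 of the 8 comparisons, all called, among them luminal progenitors from NP to PI (38.9 and 36.0 to 9.81 and 11.8 CPM, log2 -1.71 ± 0.18, adjusted p = 7.38e-05) and basal cells from G to L (149 and 150 to 36.7 and 37.8 CPM, log2 -1.89 ± 0.12, adjusted p = 1.60e-05). The exception was NP to G in basal cells (log2 0.35). The list gave 4 rises and 1 fall of 12 in luminal progenitors, the same numbers of 12 in hormone-sensing progenitors, 4 and 2 of 11 in differentiated hormone-sensing cells and 0 and 1 of 11 in basal cells between NP and PI. Over all genes 13.9%, 9.58%, 7.64% and 4.74% were called higher in these types, and 13%, 7.05%, 6.65% and 2.69% lower. In basal cells the list gave 2 and 0 of 11 from NP to G and 4 and 4 of 12 from G to L, where 46.1% and 48.3% of all genes were called.

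Of 10 further genes for phosphate and mineral handling, 4 of 8 rose from NP to PI in hormone-sensing progenitors (median 0.70 against -0.02) and 3 of 8 in luminal progenitors, where 1 fell. Over all genes 9.58% and 13.9% were called higher there. Slc20a1, a phosphate transporter of the type III family, rose in both, from 31.7 and 30.9 to 74.3 and 74.9 CPM (log2 1.25 ± 0.14, adjusted p = 0.000125) and from 65.5 and 69.6 to 113 and 133 CPM (log2 0.95 ± 0.14, adjusted p = 0.000615). Stc1, a stanniocalcin, rose in both as well (log2 1.76 and 1.86). From NP to G in basal cells, where 24.3% of all genes were called higher and 21.9% lower, 5 of 8 rose and 2 fell, with Slc20a1 (log2 1.48) and Enpp1, which makes pyrophosphate (log2 1.86), higher and Slc20a2 (log2 -1.45) and Stc2 (log2 -2.77) lower, and from G to L 1 rose and 3 fell, with Slc20a1 lower again (log2 -1.35). That 1 was Alpl, alkaline phosphatase, which went from 92.3 and 80.1 to 263 and 318 CPM (log2 1.87 ± 0.15, adjusted p = 3.90e-05) and also rose in alveolar progenitors (log2 2.56) and differentiated alveolar cells (log2 1.88), where 2 of 7 and 2 of 8 rose and 0 fell. Its levels there were 93.4 and 142 CPM in C11 and 17.5 and 16.2 CPM in C9, beside the higher basal markers of these clusters given above, whose part was not tested. In differentiated hormone-sensing cells 1 of 7 rose between NP and PI (Stc2, log2 0.75) and in basal cells 0 of 7, where 7.64% and 4.74% of all genes were called higher. For G to L, 48.3% of all genes were called in basal cells, 28% in alveolar progenitors and 18.7% in differentiated alveolar cells.

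Of the 12 partners of vitamin D signalling, only 5 or 6 passed the filter in each comparison. None of the 5 tested was called between NP and PI in luminal progenitors, hormone-sensing progenitors, differentiated hormone-sensing cells or basal cells. The medians there were 0.11, -0.10, -0.12 and -0.30, and 26.9%, 16.6%, 14.3% and 7.43% of all genes were called. From G to L 1 of 5 fell in differentiated alveolar cells (Med1, log2 -1.64), 0 of 5 was called in alveolar progenitors, and in basal cells 2 of 6 rose, the partner receptor Rxra from 8.55 and 6.73 to 15.99 and 18.6 CPM (log2 1.29 ± 0.22, adjusted p = 0.00171) and Ncoa3 (log2 1.01), while Med1 fell (log2 -0.97). From NP to G in basal cells 1 of 6 rose (Ncoa1, log2 1.24), where 46.1% of all genes were called. From G to L the shares of all genes called were 18.7% in differentiated alveolar cells, 28% in alveolar progenitors and 48.3% in basal cells.

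Of 11 genes of parathyroid hormone-related protein, calcitonin and calcium receptor signalling, 3 of 6 rose and 2 fell from G to L in basal cells, where Pthlh itself rose and 24.2% of all genes were called higher and 24% lower. Pth1r, its receptor, was at 0.755 and 1.80 CPM in G and 4.16 and 4.03 CPM in L (log2 1.76 ± 0.43, adjusted p = 0.00898), and Tnfrsf11a, the receptor RANK, at 34.5 and 35.5 against 66.2 and 67.5 CPM (log2 1.05 ± 0.13, adjusted p = 0.000425). Tnfrsf11a also rose from NP to G (log2 1.17), where 3 of 5 rose and 1 fell and 46.1% of all genes were called. Calca, the calcitonin gene, was at 31.6 and 48.3 CPM in differentiated alveolar cells and 29.8 and 138 CPM in alveolar progenitors of G and had 0 UMIs in both types in L, and was called lower in both, as it was in basal cells (6.04 and 14.1 to 0.237 and 0 CPM). In each of the 2 alveolar types 1 gene rose and 1 fell, of 6 and 5 tested, where 18.7% and 28% of all genes were called. From NP to PI 0 of 4 were called in luminal progenitors and in basal cells, and 1 fell in each hormone-sensing type: Calca in progenitors (113 and 46.5 to 0 and 14.9 CPM) and Tnfsf11, the ligand RANKL, in differentiated cells (2.58 and 1.65 to 0 and 0.0623 CPM, adjusted p = 0.00162). Over all genes 26.9% and 7.43% were called in luminal progenitors and basal cells. In the hormone-sensing progenitors and differentiated cells 7.05% and 6.65% were called lower.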

How the data were processed

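Single-cell libraries (10x Genomics 3′ v2) of 8 mice, 1 mouse each and 2 a stage, were analysed. The deposited matrices hold unnormalised UMI counts for each gene in each barcode, produced by the authors in Cell Ranger. The submitters' processing notes name STAR and the mm10 build. The deposited annotation gives each cell's library, cluster, quality flag, UMI and gene counts and the fraction of mitochondrial UMIs, as the authors computed them, and the authors had removed barcodes found in several libraries. No doublet caller was run here, and the deposited combined matrix was not used. The members and gene lists were chosen with earlier results of these data known.

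UMIs of cells that passed the flag were summed by library and cluster (at least 20 cells, with clusters as the authors named them) or by cell type, which pools the clusters of all stages. Stages were compared with edgeR 4.0.16 (R 4.3.3): TMM scaling, filterByExpr (minimum count 10, total 15), quasi-likelihood F-test, Benjamini-Hochberg adjustment over all genes tested and a threshold of 0.05. Every adjusted p in the text comes from edgeR unless DESeq2 (1.42.0) is named. Differences between cell types were fitted as interactions with the mouse as a term. The steps were tested on simulated counts with known changes. The p-values of the stage fits rest on 2 residual degrees of freedom, from 2 mice a stage, beside 6.63 to 21.3 prior ones shared across genes. An exact permutation test of 2 against 2 cannot give a p below 0.333, so the tests rest on the spread shared across genes. All 9 members are described, and from each further list at most 4 genes a comparison are named, those with the largest change among the genes called. Genes most like a member were ranked for members with a mean of at least 20 CPM in 1 cluster. Shares of cells carry exact Clopper-Pearson 95% intervals, and the limit for 0 is 3 counts. Both cover counting error only. Sums, shares and plots were made in Python 3.11.15 (scipy 1.17.1, matplotlib 3.10.9, numpy 2.4.6, pandas 2.3.3). Alternatives were DESeq2, no filter, library size only, milk protein genes left out, the replicate number as a block, only the main cluster of a stage, the study's threshold, each mouse left out, other scalings of the levels and other depths for the shares.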

Additional observations from a re-analysis of the deposited data

Results flagged for a closer look

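In 8 cases the change between stages of a member differed between cell types by the interaction test. From NP to PI the log2 difference of luminal progenitors against differentiated hormone-sensing cells was 1.49 for Vdr and 1.54 for Atp2c2, and against hormone-sensing progenitors -0.51 for Atp2b1 and 1.80 for Atp2c2. From G to L that of differentiated alveolar cells against basal cells was 3.32 for Pthlh, 1.64 for Atp2c1 and 5.76 for Slc34a2, and against alveolar progenitors 1.65 for Atp2c1. The Pthlh value rests on 10 UMIs in L, beside basal markers that were higher in C9 than in C8 and whose part was not tested. The Slc34a2 value rests on 3 UMIs in the basal cells of G, and both Atp2c2 values on 7 UMIs in the luminal progenitors of NP.

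Clusters C16 to C19 are not epithelial and enter no comparison above, and 5 members were found in them above the limit that a count of 0 allows. Vdr reached 16.8 CPM and Atp2b1 353 CPM in C17 of mouse G2, a cluster with immune markers, which summed to 33224 CPM there. Pthlh reached 25.0 CPM in C19 of G1 and Atp2b2 6.19 CPM in C19 of L1, where endothelial markers summed to 2722 and 3328 CPM. Atp2c1 reached 93.9 CPM in C18 of NP1, with fibroblast markers at 7473 CPM. These sums rest on 9, 189, 8, 5 and 13 UMIs in this order.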

How the results depend on the processing

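Of the 37 calls of members, 0 changed direction under any alternative run. Counts of members called moved by more than 1.5 times in these cases. At the study's own threshold, which tests against a log2 change of 1 at a false discovery rate of 0.01, 2 members stayed called in luminal progenitors (main 6), 1 in hormone-sensing progenitors (4), 0 in differentiated hormone-sensing cells (2), 0 in basal cells from NP to G (3), 1 in basal cells from G to L (4), 4 in differentiated alveolar cells (7) and 1 in alveolar progenitors (3). With DESeq2, 1 stayed in basal cells from NP to G and 1 in each NP to PI interaction (2 each), and 617 and 151 genes were called in those 2. With library size only, 1 was called in the interaction of luminal progenitors with differentiated hormone-sensing cells (2) and 2 in that of the alveolar types (1).

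Replicate numbers did not pair the mice: the deviations of same-numbered mice correlated between -0.058 and 0.065. The fit with the replicate block gave 1 call among members in basal cells between NP and PI in place of 0. It ended 0 of the 29 calls within cell types and was not run for the interactions. With each mouse left out in turn, 4 to 5 members were called in luminal progenitors, 2 to 4 in hormone-sensing progenitors, 2 in differentiated hormone-sensing cells, 0 to 1, 2 to 3 and 3 to 5 in basal cells (NP to PI, NP to G, G to L), 6 to 8 in differentiated alveolar cells and 3 to 4 in alveolar progenitors. In the interactions the ranges were 1 to 2 for both of NP to PI, 2 to 4 against basal cells and 0 to 2 between the alveolar types. In basal cells between NP and PI, leaving out PI1 or PI2 gave the 1 call. With 1 mouse left in a group, that mouse is assumed to vary like the others.

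Counts over all genes moved more. DESeq2 called 1471 genes in luminal progenitors (edgeR 2892), 762 in hormone-sensing progenitors (1778), 1141 in differentiated hormone-sensing cells (1714), 371 and 2848 in basal cells from NP to PI (632) and to G (5114), 1023 in alveolar progenitors (2366), and 1298 and 201 in the G to L interactions (2501 and 339). Library size only called 6096 in differentiated alveolar cells (2219) and 4763 and 2601 in those interactions, where 11.5% and 3.23% of calls were positive in place of 44.9% and 46.9%. In luminal progenitors 41.0% of calls were higher with library size only in place of 51.7%, and in the NP to PI interactions 36.1% and 30.0% in place of 51.7% and 51.4%. No filter called 18 genes in basal cells between NP and PI and 537 in the last interaction. The study's threshold left 231, 127, 121 and 36 genes from NP to PI (in the order of cell types above), 611 and 760 in basal cells from NP to G and from G to L, and 342 and 352 in the alveolar types. With a mouse left out, counts past that limit were 1704 in luminal progenitors, 466 to 489, 928 to 1107 and 194 to 333 in the next 3 types, 609 to 1078 in differentiated alveolar cells, and 936, 565 to 591, 924 to 1603 and 144 to 756 in the interactions (main 1577, 888, 2501 and 339). The cause was not tested.

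By the share of cells with a UMI, 4 of 8 genes were highest in the same cluster without thinning as after thinning to 1000 UMIs. Vdr and Atp2c1 were then highest in C1, Pthlh in C13 and Cyp24a1 in C7. After thinning to 1000 UMIs Cyp24a1 was highest in C9, in place of C7 by its level. In C9, Atp2c2 was at 98.8 CPM without the milk protein genes and 71.8 CPM as a mean over cells, and 56.0 CPM as reported. At this depth Casr yielded 0 UMIs, and Atp2b2 few outside C9. Among the stage comparisons, those with C9 and the basal cells of PI hold the fewest cells.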
